A study of Mus musculus with 12 samples.

Results

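The genes described are the secreted and membrane-bound proteases that cut the extracellular matrix of fat, and the inhibitors that hold them back. They were chosen by symbol among the main probe sets of the array: the matrix metalloproteinases (MMP), the ADAMTS proteases, the ADAMTS-like proteins (ADAMTSL), and the tissue inhibitors of metalloproteinases (TIMP), leaving out Mmp12. This gave 50 of the 21618 genes measured, namely 22 MMP, 19 ADAMTS, 5 ADAMTSL and 4 TIMP genes. The fat was brown (brown adipose tissue, BAT) or white (white adipose tissue, WAT) and came from male C57 mice of 4 months on chow; total RNA was measured. The groups were ob/ob/Cidea-/-/Cidec-/- WAT, ob/ob WAT, ob/ob/Cidea-/-/Cidec-/- BAT and ob/ob BAT, with 3 Affymetrix arrays each. All mice were thus ob/ob, that is, obese for want of leptin. The first genotype, called triple mutant below, is labelled as also lacking Cidea and Cidec, which code for lipid droplet proteins. The labels name no depot for the white fat, give no promoter or Cre, and leave unsaid whether each array stands for another animal. The p-values therefore rest on sample-to-sample spread alone, and that spread may be technical.

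MMPs are zinc proteases made as inactive proenzymes; they cut collagens, gelatin, laminin, proteoglycans and many other proteins outside the cell. TIMPs bind the active site of MMPs, and Timp3 also binds several ADAM and ADAMTS enzymes. ADAMTS proteases trim procollagens or cut large proteoglycans such as versican, and ADAMTSL proteins share their accessory domains but not the protease domain. In growing fat, this system remodels the collagen around enlarging adipocytes, and much of it is made by stromal cells, macrophages and preadipocytes.

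Signals are RMA values on the log2 scale. The highest of 45 antigenomic control probe sets, which match no mouse transcript, lay between 7.40 and 8.13 across the arrays and is used as a strict mark of background. Only 15 of the 50 genes had at least 1 group mean above it, 35 had none, and 5 had all 4 groups above (Timp2, Timp3, Timp4, Mmp2 and Adamts9). For a group below that mark, a log2 change is a difference of signal and not a fold estimate. "At least" folds set the brighter group's mean against the mean of the highest controls in the dimmer group. With 3 arrays a group, precision is limited throughout.

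The deleted genes and markers of other cells were checked first. Cidea had signals of 8.42, 8.95 and 10.03 in triple mutant WAT, against 4.86, 5.55 and 5.51 in ob/ob WAT, and of 11.29, 11.39 and 11.29 in triple mutant BAT, against 11.39, 11.44 and 11.51 in ob/ob BAT. Cidec, for its part, had 11.25, 11.07 and 11.04 in triple mutant WAT, against 11.25, 11.57 and 11.87 in ob/ob WAT, and 10.81, 10.83 and 10.79 in triple mutant BAT, against 10.59, 11.12 and 11.03 in ob/ob BAT. Whether the probe sets read deleted parts of either gene is unstated, and these signals check no label. The mean of 8 brown adipocyte markers, Cidea among them, was 10.60 to 11.03 in triple mutant BAT and 9.88 to 10.17 in ob/ob BAT, and 9.25 to 10.21 in triple mutant WAT and 5.93 to 6.52 in ob/ob WAT. Macrophage markers were called lower for 14 of 15 genes in triple mutant WAT and for 13 of 15 in triple mutant BAT, and fibroblast markers for 7 of 12 in each tissue. In triple mutant WAT, markers called higher were 6 of 8 of adipocytes, 8 of 8 of brown adipocytes, 5 of 8 of endothelium and 4 of 7 of smooth muscle. The adipocyte list holds Cidec and the brown adipocyte list Cidea, so each includes a gene the triple mutants are labelled as lacking. Over all genes, 17.6% were called higher and 16.7% lower in triple mutant WAT, and 6.98% lower in triple mutant BAT. Skeletal muscle markers (9 genes) averaged 10.56, 8.29 and 6.23 on the triple mutant BAT arrays and 7.58, 11.02 and 10.73 on the ob/ob BAT arrays, so the BAT arrays held unequal muscle signal within each genotype, whose part in the BAT results was not tested. Correlations between arrays of a group over all genes were 0.978 to 0.996.

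Of the MMP genes, 9 lie side by side on chromosome 9, in the order Mmp13, Mmp1b, Mmp3, Mmp1a, Mmp10, Mmp8, Mmp27, Mmp20 and Mmp7, over 427.1 kb (7272514 to 7699585, build NCBIM37 of the array annotation). The promoters of this cluster are known for a site of AP-1, the Fos and Jun transcription factor that inflammatory signals switch on. RefSeq promoters (build GRCm38.p6) were found for 35 of the 50 genes, and the 250 bases before each start were searched on both strands for the AP-1 letters TGAGTCA, whose other strand reads TGACTCA. The motif stood in 6 of these 35 genes (17.1%), against 1395 of all 27025 genes with a promoter (5.16%). All 6 lay in the cluster, which had promoters for 9 genes, and 0 of the other 26 held it. The site was known there beforehand and the genes are neighbours, so the higher share is no separate finding. Cluster members Mmp8, Mmp20 and Mmp27 had a promoter window without these letters, which says nothing of the factor itself. Windows are printed below for the members of the cluster whose signal moved most between genotypes in WAT and held the motif, 5′ to 3′ with the motif in capitals.

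Mmp13 (chr9:7272264-7272513, plus strand): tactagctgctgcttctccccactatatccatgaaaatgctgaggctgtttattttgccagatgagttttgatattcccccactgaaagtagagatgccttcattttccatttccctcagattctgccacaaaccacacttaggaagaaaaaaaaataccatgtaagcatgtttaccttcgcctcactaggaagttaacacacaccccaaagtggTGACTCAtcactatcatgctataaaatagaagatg
Mmp3 (chr9:7445572-7445821, plus strand): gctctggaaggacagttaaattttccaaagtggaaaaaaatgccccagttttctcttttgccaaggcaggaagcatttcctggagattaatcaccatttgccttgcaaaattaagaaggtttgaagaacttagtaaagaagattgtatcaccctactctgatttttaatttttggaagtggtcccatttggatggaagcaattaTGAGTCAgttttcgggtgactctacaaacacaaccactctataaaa
Mmp7 (chr9:7691840-7692089, plus strand): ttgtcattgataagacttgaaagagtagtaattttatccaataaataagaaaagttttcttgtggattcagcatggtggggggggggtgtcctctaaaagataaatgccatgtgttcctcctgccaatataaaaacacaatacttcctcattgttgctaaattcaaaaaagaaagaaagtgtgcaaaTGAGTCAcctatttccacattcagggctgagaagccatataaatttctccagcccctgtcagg

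The first base of the motif lay 35 bases before the start in Mmp13, 46 in Mmp3 and 63 in Mmp7. Mmp7 has a further RefSeq start, whose window held no motif. The other 3 motif-bearing genes, which were not called between genotypes in either tissue, are shown as the motif with 20 bases on each side. None of the motif-bearing genes, Mmp13, Mmp3 and Mmp7 included, had a group mean above the highest control.

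Mmp10: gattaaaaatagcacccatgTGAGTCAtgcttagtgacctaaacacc
Mmp1a: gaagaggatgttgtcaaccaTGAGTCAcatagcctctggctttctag
Mmp1b: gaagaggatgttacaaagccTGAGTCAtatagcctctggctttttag

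In these, the motif began 63 (Mmp10), 73 (Mmp1a) and 93 (Mmp1b) bases before the start. Mmp1a and Mmp1b are paralogous genes, and whether their probe sets share signal was not tested.

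In WAT the genotypes differed in many of these genes, and most of the called ones were lower in triple mutants. Of the 50 genes, 23 were called (46%), with 6 higher and 17 lower, against 34.3% of all genes called, 17.6% higher and 16.7% lower (limma over all 21618 genes, two-sided, Benjamini-Hochberg adjusted p under 0.05). The members' median log2 change was −0.11, beside 0.04 over all genes. By family, 10 of 22 MMP genes were called (3 higher, 7 lower), 8 of 19 ADAMTS (2 and 6), 3 of 5 ADAMTSL (1 and 2), and 2 of 4 TIMP genes (0 and 2). Among the 15 genes with a group above the highest control, 10 were called (66.7%) when only genes that pass that mark were tested, against 64.3% of the 7037 such genes. In BAT 13 genes were called (26%), with 1 higher and 12 lower, against 17.4% of all genes, 10.4% higher and 6.98% lower. The median log2 change was −0.20, beside −0.03 over all genes. By family these were 4 MMP (1 higher, 3 lower), 5 ADAMTS, 2 ADAMTSL and 2 TIMP genes, the last 3 families all lower. The 1 called higher, Mmp24, was read by a probe set on the strand opposite to the gene. Both tissues called 8 of the genes, all lower in each: Timp2, Mmp2, Mmp14, Adamts2, Adamts5, Adamts7, Adamts14 and Adamts15. They are 34.8% of the WAT calls and 61.5% of the BAT calls, where the same shares over all genes were 33.4% and 66%. Neither tissue called 22 genes, where 34.3% of all genes were called in WAT and 17.4% in BAT. The share of all genes called in neither was not counted.

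**Figure D1:**
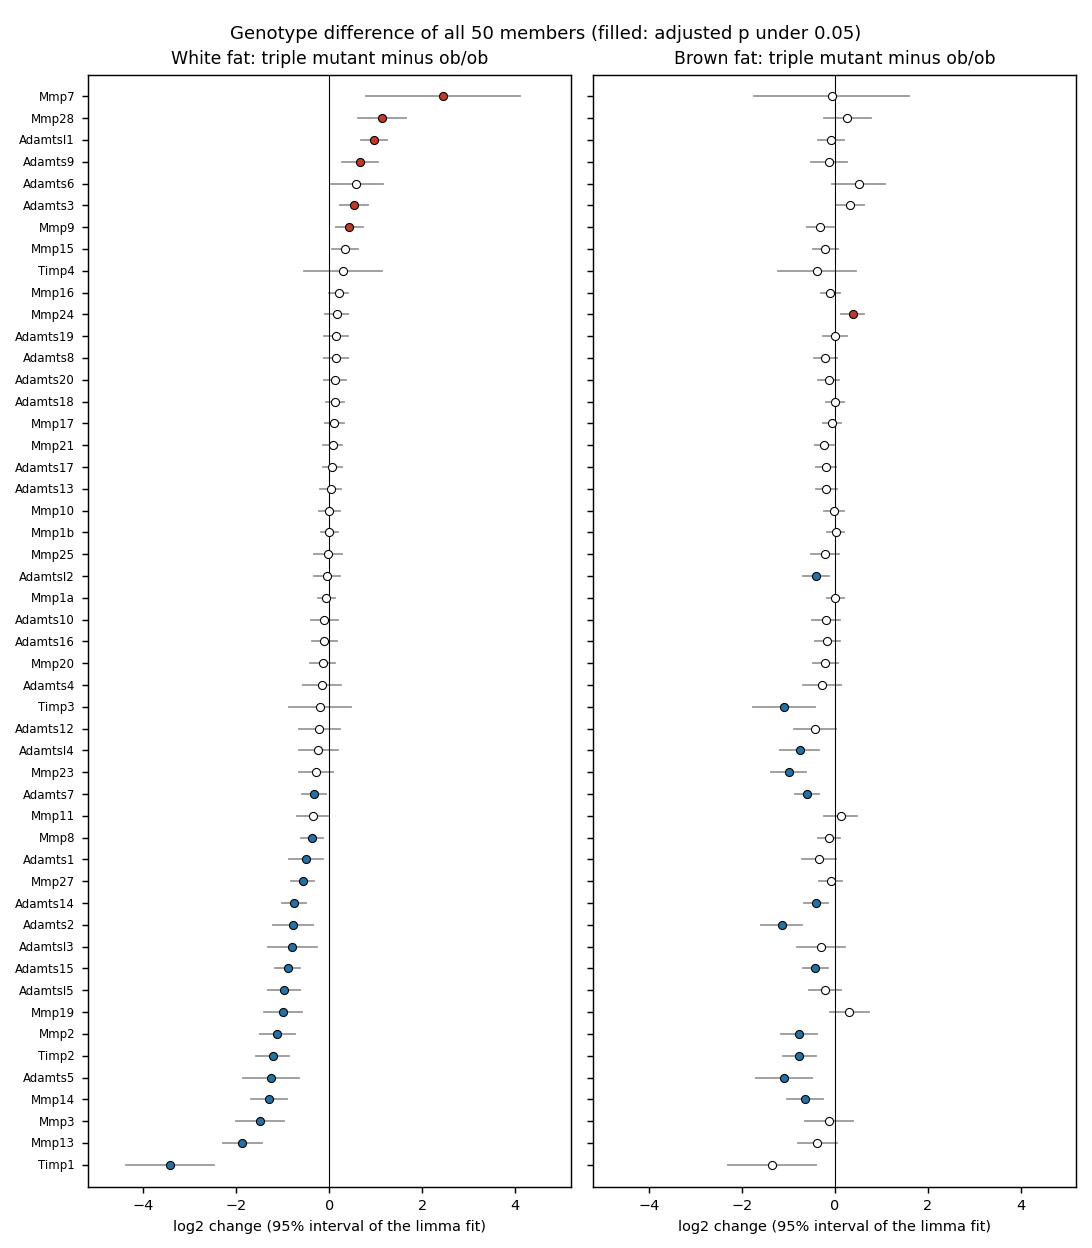
Log2 change (triple mutant minus ob/ob, x axis) of all 50 genes in WAT (left) and BAT (right), with the 95% interval of the limma fit; filled points passed an adjusted p of 0.05, red where higher and blue where lower in triple mutants. In WAT 17 of the filled points lie left of 0 and 6 right of it; in BAT 12 lie left and 1 right.

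Among the inhibitors, Timp1 fell most in WAT, and by more than any other of the 50 genes there. Timp1, an inhibitor that inflammation induces, had log2 signals of 5.66, 5.25 and 4.99 in triple mutant WAT, against 8.63, 8.42 and 9.13 in ob/ob WAT. Every triple mutant array lay more than 2 log2 units below every ob/ob array, and all 3 were below the highest control (log2 change −3.43, SE 0.43, adjusted p = 9.14e-05). In linear terms ob/ob WAT was at least 1.9-fold brighter. The BAT signals of Timp1 were 6.16, 5.62 and 5.32 in triple mutant BAT, against 7.79, 5.82 and 7.52 in ob/ob BAT. Array 2 of ob/ob BAT sat among the triple mutant arrays, the groups overlapped, and the difference was not called (log2 change −1.34, SE 0.43, adjusted p = 0.0535). Without that array it was −1.95 and called (adjusted p from 0.00201 to 0.178 over all alternatives), and with genotype and number as a random block the adjusted p was 0.0464. Array weights and the number as a fixed block also called it. So did testing only genes with a mean of at least 5, or only those with a group above the highest control.

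Timp2 both inhibits MMPs and, at low dose, helps Mmp14 activate the Mmp2 proenzyme. It had 9.95, 9.98 and 9.41 in triple mutant WAT, against 11.11, 11.03 and 10.85 in ob/ob WAT, and 8.54, 8.62 and 8.37 in triple mutant BAT, against 9.06, 9.53 and 9.22 in ob/ob BAT. In both tissues all triple mutant arrays were below all ob/ob arrays, and all groups were well above background. Timp2 fell in WAT (log2 change −1.21, SE 0.16, adjusted p = 0.000137) and in BAT (log2 change −0.76, SE 0.16, adjusted p = 0.00876), and the WAT effect minus the BAT effect was not called, at −0.45 (95% interval −0.95 to 0.05). Timp3, which is bound to matrix and restrains the shedding enzyme Adam17, had 9.43, 9.89 and 9.55 in triple mutant BAT, against 10.40, 10.71 and 11.004 in ob/ob BAT. All 3 ob/ob arrays were higher (log2 change −1.08, SE 0.30, adjusted p = 0.0311), but the call was lost without triple mutant BAT array 1 or 3 or ob/ob BAT array 2 or 3 (log2 change −1.08 to −0.93, with adjusted p from 0.00376 to 0.108 over all alternatives). In WAT its signals were 9.56, 9.86 and 9.43 in triple mutant WAT, against 8.99, 10.04 and 10.45 in ob/ob WAT, where the ob/ob arrays spread over more than 1 log2 unit on both sides of the triple mutant ones (log2 change −0.21, SE 0.30, adjusted p = 0.667). The WAT difference depended on single ob/ob arrays: without array 1 it was −0.63 and called, and without array 3 it was 0.10, in the other direction (adjusted p from 0.0447 to 0.883 over all alternatives).

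Timp4, an inhibitor abundant in fat and heart, had 9.41, 9.64 and 9.98 in triple mutant WAT, against 8.24, 9.94 and 9.97 in ob/ob WAT, and 9.83, 9.998 and 10.36 in triple mutant BAT, against 10.14, 10.76 and 10.41 in ob/ob BAT. The low ob/ob WAT value was again array 1, the groups overlapped in both tissues, and neither difference was called (WAT log2 change 0.30, SE 0.38, adjusted p = 0.62, 95% interval −0.55 to 1.14; BAT log2 change −0.38, SE 0.38, adjusted p = 0.555, 95% interval −1.22 to 0.47). In WAT the Timp4 difference turned to −0.28 without ob/ob array 1 and was 0.58 and 0.59 without array 2 and array 3, so it had no settled direction. The 4 TIMP genes were thus not all called in the same tissue. Timp1 and Timp2 fell in WAT, Timp2 and Timp3 fell in BAT, and Timp4 was called in neither.

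**Figure D2:**
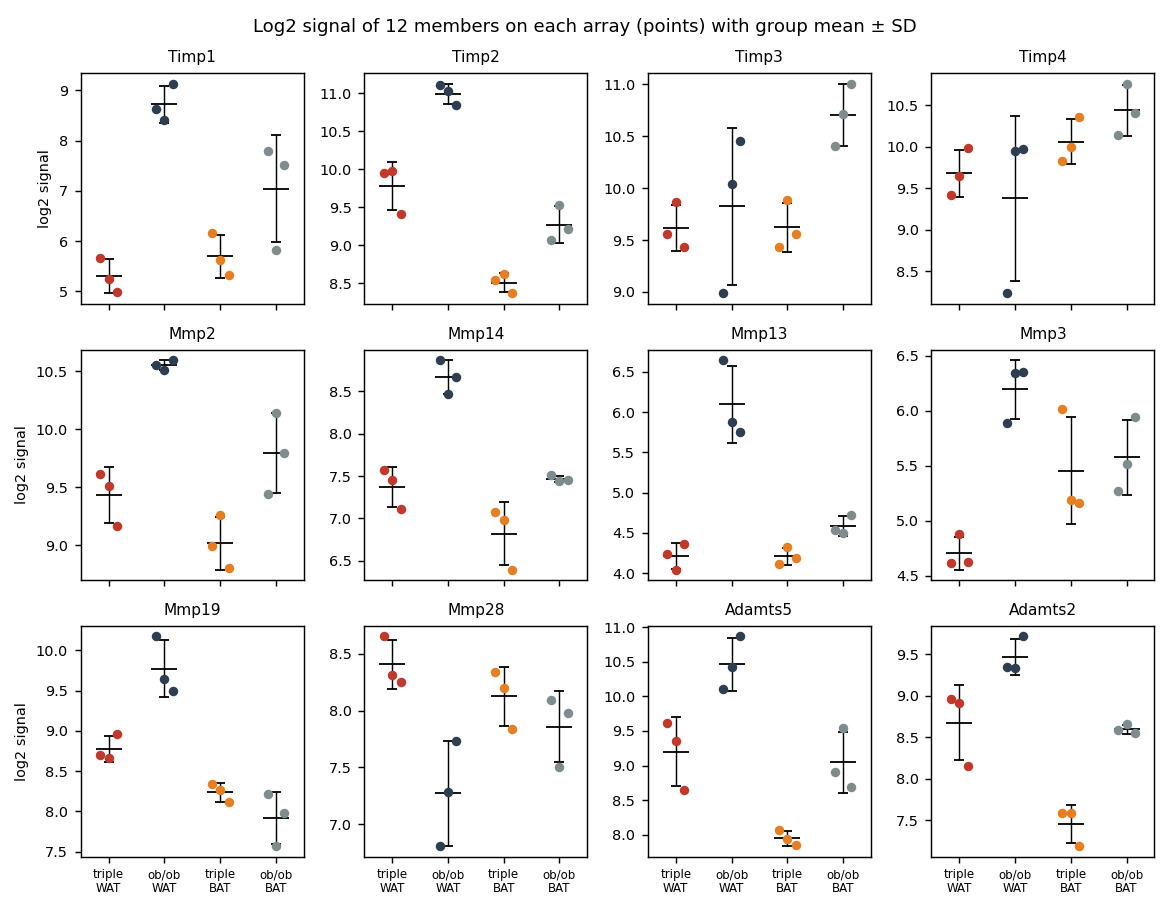
Log2 signal (y axis, scaled per gene) of 12 of the genes on each array (points; triple mutant WAT, ob/ob WAT, triple mutant BAT and ob/ob BAT from left to right), with group mean and SD as bars. Timp1, Timp2, Mmp2, Mmp14, Mmp13 and Mmp3 show ob/ob WAT above triple mutant WAT with no overlap, and Mmp28 shows the opposite order.

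Macrophage and fibroblast markers also differed between the genotypes. On the arrays where Timp1 was measured at 7.79, 5.82 and 7.52 (ob/ob BAT arrays 1 to 3), the mean of the 15 macrophage markers was 8.94, 7.92 and 8.14, so array 2 was lowest on both. The fibroblast mean on the same arrays was 8.82, 9.14 and 8.85, with array 2 the highest. In WAT the macrophage mean was 7.14 to 7.29 in triple mutants and 10.16 to 10.50 in ob/ob mice; in BAT it was 6.75 to 6.86 in triple mutants. The fibroblast mean (12 genes) was 8.70 to 9.02 in triple mutant WAT and 9.53 to 9.62 in ob/ob WAT, and 8.32 to 8.49 in triple mutant BAT and 8.82 to 9.14 in ob/ob BAT. Neutrophil markers (11 genes), the usual source of Mmp8 and much Mmp9, stayed below the highest control in all 4 groups, with group means of their average from 4.48 to 4.57. Mast cell markers were called lower in triple mutant WAT for 6 of 7 genes, against 16.7% of all genes. In RNA of whole tissue, fewer cells of a type and less RNA per cell cannot be told apart, and the part that cell types had in the changes of the proteases and inhibitors was not tested.

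**Figure D3:**
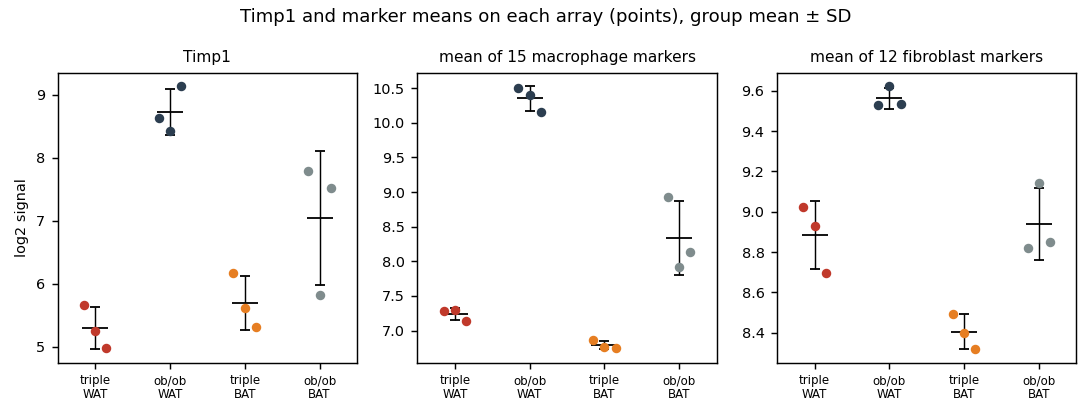
Log2 signal (y axis) of Timp1 and the mean log2 signal of 15 macrophage and 12 fibroblast markers on each array (points; group order as on the x axis), with group mean and SD. The macrophage mean runs from 7.14 to 7.29 in triple mutant WAT and from 10.16 to 10.50 in ob/ob WAT; ob/ob BAT array 2, the middle point of its group, is the lowest of that group for Timp1 and for the macrophage mean.

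The gelatinase Mmp2 and its membrane-bound activator Mmp14 fell in both tissues. Mmp2, which is made mainly by fibroblasts and preadipocytes, had 9.62, 9.52 and 9.16 in triple mutant WAT, against 10.55, 10.51 and 10.60 in ob/ob WAT, and 8.99, 9.26 and 8.80 in triple mutant BAT, against 9.45, 10.14 and 9.79 in ob/ob BAT. The groups did not overlap in either tissue, and all 4 lay above background (WAT log2 change −1.12, SE 0.18, adjusted p = 0.000408; BAT log2 change −0.78, SE 0.18, adjusted p = 0.0115). Mmp14, a collagenase on the cell surface that fat needs for its normal growth, had 7.57, 7.45 and 7.11 in triple mutant WAT, against 8.87, 8.47 and 8.67 in ob/ob WAT. Ob/ob WAT was the sole group above the highest control, at least 1.83-fold brighter than triple mutant WAT (log2 change −1.30, SE 0.18, adjusted p = 0.000158). Its BAT signals of 7.07, 6.98 and 6.39 in triple mutant BAT, against 7.51, 7.44 and 7.45 in ob/ob BAT did not overlap either (log2 change −0.65, SE 0.18, adjusted p = 0.0274). This second call was lost without triple mutant BAT array 3 or ob/ob BAT array 1, 2 or 3 (log2 change −0.66 to −0.44, with adjusted p from 0.0132 to 0.0833 over all alternatives) and when the 6 BAT arrays were fitted alone.

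Mmp9, the other gelatinase and a product of myeloid cells, went the other way at low signal. It had 6.03, 5.90 and 5.96 in triple mutant WAT, against 5.50, 5.39 and 5.72 in ob/ob WAT, and 5.69, 5.63 and 5.63 in triple mutant BAT, against 5.94, 5.67 and 6.25 in ob/ob BAT. All triple mutant WAT arrays were higher than all ob/ob WAT arrays, by less than 1 log2 unit and below background in every group (log2 change 0.42, SE 0.13, adjusted p = 0.0264). The call was lost without triple mutant WAT array 1 or 3 or ob/ob WAT array 1 or 2 (log2 change 0.35 to 0.43, with adjusted p from 0.00489 to 0.104 over all alternatives). In BAT the groups overlapped (log2 change −0.31, SE 0.13, adjusted p = 0.137), and without ob/ob BAT array 2 a log2 change of −0.45 was called, where without array 3 it was −0.16 (adjusted p from 0.0272 to 0.437 over all alternatives).

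The remaining membrane-type MMPs showed little. None of Mmp15, Mmp16 and Mmp24, which span the membrane, or Mmp17 and Mmp25, which carry a lipid anchor, was called in WAT, with log2 changes from −0.03 to 0.34. Mmp15 was nearest (7.02, 6.80 and 6.66 in triple mutant WAT, against 6.37, 6.39 and 6.71 in ob/ob WAT; log2 change 0.34, SE 0.12, adjusted p = 0.0553), and it was called without triple mutant WAT array 3, ob/ob WAT array 3 or triple mutant BAT array 1 (log2 change 0.34 to 0.45, with adjusted p from 0.00527 to 0.2 over all alternatives) and with genotype and number as a random block (adjusted p = 0.0484). Either quantile normalization, median centring, array weights and a filter on a mean of at least 5 also called Mmp15 higher in WAT. Mmp24 was the sole gene called higher in BAT. It had 7.73, 7.93 and 7.85 in triple mutant BAT, against 7.25, 7.65 and 7.47 in ob/ob BAT (log2 change 0.38, SE 0.11, adjusted p = 0.0395). This rests on a probe set of 1495 bases on the minus strand, while the gene's RefSeq promoter and its long probe set lie on the plus strand. The long set gave −0.0496, so a rise of the Mmp24 transcript itself was not shown. The call was lost without triple mutant BAT array 1, 2 or 3, ob/ob BAT array 1 or 3, triple mutant WAT array 1 or 2 or ob/ob WAT array 2 (log2 change 0.28 to 0.44, with adjusted p from 0.0123 to 0.75 over all alternatives).

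In the chromosome 9 cluster the collagenase Mmp13 and the stromelysin Mmp3 fell in WAT. Mmp13, the main interstitial collagenase of mice, had 4.24, 4.04 and 4.37 in triple mutant WAT, against 6.65, 5.88 and 5.76 in ob/ob WAT. All ob/ob arrays stood more than 1 log2 unit above all triple mutant arrays, with both groups below background (log2 change −1.88, SE 0.19, adjusted p = 2.17e-05). In BAT it had 4.12, 4.33 and 4.19 in triple mutant BAT, against 4.53, 4.50 and 4.72 in ob/ob BAT, without overlap but near the floor of the array (log2 change −0.38, SE 0.19, adjusted p = 0.211). It was called there only without ob/ob WAT array 1 (adjusted p = 0.0354, with 0.0354 to 0.436 over all alternatives). Mmp3, stromelysin 1, which activates other proMMPs, had 4.61, 4.88 and 4.62 in triple mutant WAT, against 5.89, 6.34 and 6.36 in ob/ob WAT. The groups were again well apart in WAT (log2 change −1.49, SE 0.24, adjusted p = 0.000446). Its BAT values of 6.02, 5.19 and 5.16 in triple mutant BAT, against 5.27, 5.51 and 5.94 in ob/ob BAT overlapped, with triple mutant array 1 the highest of the 6 (log2 change −0.12, SE 0.24, adjusted p = 0.777), and the sign turned without triple mutant BAT array 2 (0.01) or 3 (0.03) or ob/ob BAT array 3 (0.06).

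Smaller falls were called in WAT for Mmp8, a collagenase of neutrophils (log2 change −0.38, SE 0.11, adjusted p = 0.0166), and Mmp27 (log2 change −0.58, SE 0.11, adjusted p = 0.00201), both with all 4 group means under 5. Mmp8 averaged 3.21 in triple mutant WAT and 3.59 in ob/ob WAT. The median of the control probe sets was 3.33 to 3.52 and 3.23 to 3.33 on those arrays. Mmp8 thus lay about as low as a typical control, and its fall is a difference of signal at the floor. The Mmp8 call was lost without triple mutant WAT array 3 or ob/ob WAT array 3 (log2 change −0.36 to −0.35, with adjusted p from 0.00312 to 0.0537 over all alternatives). Mmp1a, Mmp1b, Mmp10 and Mmp20 (the last an enzyme of tooth enamel) were not called in either tissue, with WAT log2 changes from −0.15 to 0.00 and no group mean above 5. Thus 4 of the 9 genes of the cluster were called lower in WAT, 1 was called higher, and 0 were called in BAT. The same shares over all genes were 16.7%, 17.6% and 17.4%. Of the 6 genes with the motif, Mmp13 and Mmp3 were lower, Mmp7 was higher and Mmp10, Mmp1a and Mmp1b were not called. Mmp27, called lower, and Mmp8, called lower at the level of a typical control, had promoter windows without the motif.

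**Figure D4:**
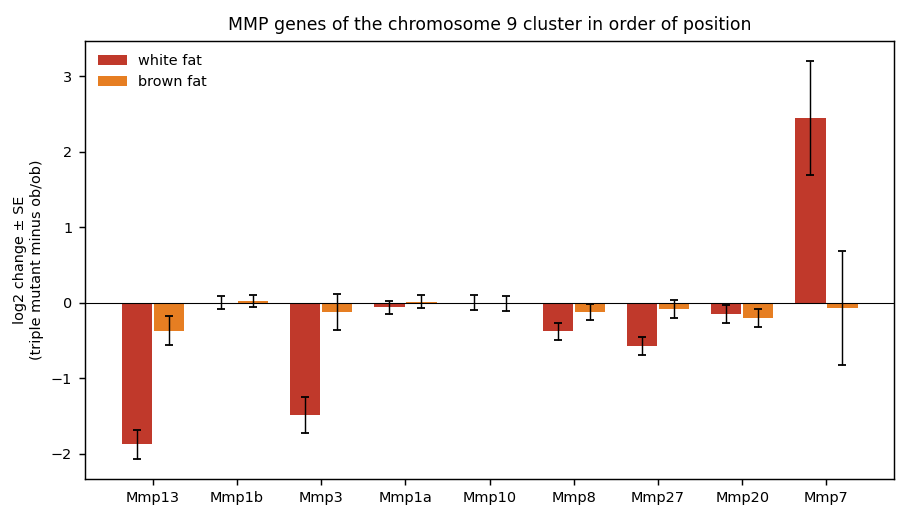
Log2 change ± SE (y axis, triple mutant minus ob/ob) of the 9 MMP genes of the chromosome 9 cluster in the order of their positions, in WAT (red) and in BAT (orange). The bars of Mmp13 (−1.88) and Mmp3 (−1.49) point down in WAT and that of Mmp7 (2.45) points up, with the widest error; no BAT bar passed the test.

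Mmp7, matrilysin, is typical of glandular epithelium. It had 8.90, 8.86 and 5.59 in triple mutant WAT, against 4.82, 6.61 and 4.58 in ob/ob WAT. Triple mutant arrays 1 and 2 were high and above background, array 3 was not, and ob/ob array 2 was above it, so the groups overlapped (log2 change 2.45, SE 0.76, adjusted p = 0.0255). In BAT all 6 arrays lay between 4.56 and 4.96. The epithelial adhesion molecule Epcam had 7.15, 6.87 and 4.50 in triple mutant WAT, against 4.16, 5.43 and 4.20 in ob/ob WAT, and the keratin Krt8 had 8.61, 8.22 and 6.58 in triple mutant WAT, against 6.21, 6.98 and 6.18 in ob/ob WAT. Both were high on the same 2 triple mutant arrays as Mmp7 and highest among ob/ob arrays on array 2. Of the epithelial list 2 of 5 genes were called higher in triple mutant WAT (Epcam and Cdh1), against 17.6% of all genes. The other 3, Krt5 (−0.19), Krt14 (−0.07) and Cldn3 (−0.0045), were not, and the list's median log2 change was −0.0045. The list's mean was 5.78, 5.62 and 5.11 in triple mutant WAT, against 5.03, 5.23 and 5.03 in ob/ob WAT. Of the mesothelial list 3 of 8 were called higher (Krt8, Krt18 and Krt19), and Msln, Upk3b, Upk1b, Wt1 and Lrrn4 were not called. The mesothelial mean was 7.20, 7.19 and 6.56 in triple mutant WAT, against 6.06, 6.82 and 6.31 in ob/ob WAT, and all of both lists' group averages were below the highest control. The part of such cells in the Mmp7 signal was not tested. Its call was lost without triple mutant WAT array 1 or 2 or ob/ob WAT array 1 or 3 (log2 change 1.89 to 2.19, with adjusted p from 0.000205 to 0.105 over all alternatives), with an intensity trend and robust priors, and when the 6 WAT arrays were fitted alone.

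**Figure D5:**
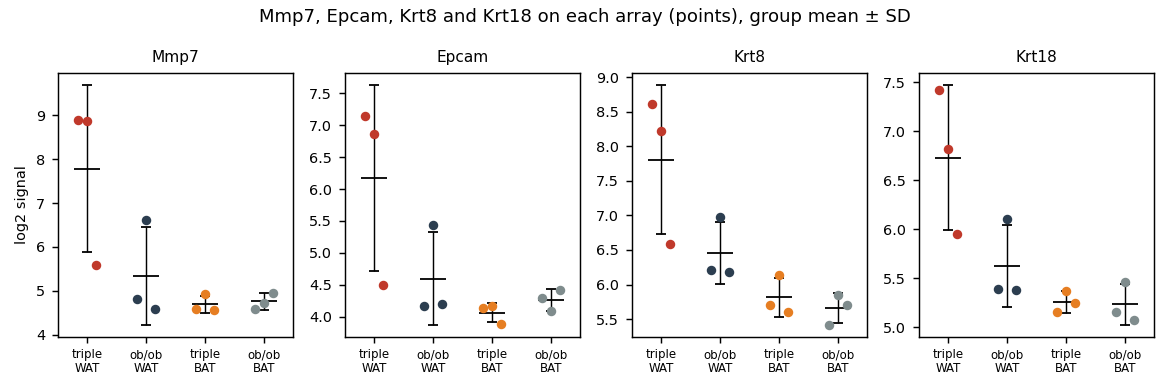
Log2 signal (y axis) of Mmp7, the epithelial marker Epcam and the mesothelial markers Krt8 and Krt18 on each array (points; group order as on the x axis), with group mean and SD. Arrays 1 and 2 of triple mutant WAT, the left and middle points of the first group, are the highest for Mmp7 (8.90 and 8.86), and the same arrays are the highest for the other 3 genes. These 3 were among the called genes of their lists, where 2 of 5 epithelial and 3 of 8 mesothelial genes were called higher in triple mutant WAT.

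Among the MMPs outside these groups, Mmp19 was called lower and Mmp28 higher in WAT. Mmp19, found in vessel walls, skin and macrophages, had 8.70, 8.66 and 8.96 in triple mutant WAT, against 10.17, 9.65 and 9.49 in ob/ob WAT, and 8.34, 8.26 and 8.11 in triple mutant BAT, against 8.21, 7.57 and 7.98 in ob/ob BAT. It was lower on all triple mutant WAT arrays (log2 change −0.998, SE 0.19, adjusted p = 0.00146), while in BAT the groups overlapped with the triple mutant mean the higher (log2 change 0.32, SE 0.19, adjusted p = 0.284). Mmp28, epilysin, had 8.65, 8.32 and 8.25 in triple mutant WAT, against 6.81, 7.28 and 7.73 in ob/ob WAT. The triple mutant arrays lay close together and above background, and the ob/ob arrays were lower and spread over nearly 1 log2 unit (log2 change 1.13, SE 0.23, adjusted p = 0.00241). In BAT it had 8.34, 8.20 and 7.84 in triple mutant BAT, against 8.10, 7.50 and 7.98 in ob/ob BAT, with overlap (log2 change 0.27, SE 0.23, adjusted p = 0.477). Mmp23, a small membrane-anchored member, was called in BAT alone. It had 6.03, 6.03 and 6.18 in triple mutant BAT, against 7.45, 6.77 and 6.99 in ob/ob BAT, all triple mutant arrays lower though below background (log2 change −0.99, SE 0.17, adjusted p = 0.00323), and log2 change −0.29, SE 0.17, adjusted p = 0.229 in WAT. Mmp11, stromelysin 3 of stromal cells, was not called in either tissue (log2 change −0.36, SE 0.16, adjusted p = 0.107 in WAT), except in WAT without ob/ob WAT array 2 (−0.51, adjusted p = 0.0263, with 0.0263 to 0.377 over all alternatives). Without ob/ob WAT array 3 its WAT change was −0.19. Mmp21 was not called either (log2 change 0.07 in WAT and −0.22 in BAT).

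The ADAMTS enzymes that trim procollagen, Adamts2, Adamts3 and Adamts14, did not move as one. Adamts2, which removes the amino-terminal propeptide of collagens I and III, had 8.96, 8.91 and 8.16 in triple mutant WAT, against 9.34, 9.34 and 9.71 in ob/ob WAT, and 7.58, 7.59 and 7.19 in triple mutant BAT, against 8.59, 8.65 and 8.55 in ob/ob BAT. It was lower on every triple mutant array in both tissues (WAT log2 change −0.79, SE 0.20, adjusted p = 0.00859; BAT log2 change −1.14, SE 0.20, adjusted p = 0.0034), and ob/ob BAT was at least 1.54-fold brighter than triple mutant BAT. Adamts14, with the same substrates, had 5.62, 5.73 and 5.83 in triple mutant WAT, against 6.77, 6.36 and 6.37 in ob/ob WAT, and 5.69, 5.64 and 5.57 in triple mutant BAT, against 6.15, 5.90 and 6.07 in ob/ob BAT. It too was lower on all triple mutant arrays of each tissue, below background (WAT log2 change −0.77, SE 0.12, adjusted p = 0.000363; BAT log2 change −0.41, SE 0.12, adjusted p = 0.0348). The BAT call was lost without triple mutant BAT array 1, 2 or 3 or ob/ob BAT array 1 or 3 (log2 change −0.44 to −0.35, with adjusted p from 0.0125 to 0.111 over all alternatives). Adamts3, best known for trimming collagen II and for processing the lymphatic growth factor Vegfc, had 6.66, 6.91 and 6.90 in triple mutant WAT, against 6.29, 6.29 and 6.30 in ob/ob WAT. All triple mutant arrays were higher (log2 change 0.53, SE 0.14, adjusted p = 0.0112), and in BAT (6.58, 6.80 and 7.14 in triple mutant BAT, against 6.31, 6.65 and 6.59 in ob/ob BAT) the groups overlapped (log2 change 0.32, SE 0.14, adjusted p = 0.139). Its probe set spans 157 bases and is 1 of 16; the widest of them gave 0.62 in WAT and, called there, 0.89 in BAT.

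The enzymes that cut versican and aggrecan gave both directions. Adamts5, the chief aggrecanase of mouse cartilage and a versicanase of fat, had 9.61, 9.36 and 8.64 in triple mutant WAT, against 10.10, 10.43 and 10.87 in ob/ob WAT, and 8.07, 7.93 and 7.84 in triple mutant BAT, against 8.90, 9.54 and 8.69 in ob/ob BAT. Triple mutant arrays were lower without overlap in both tissues, each time by over 1 log2 unit on average (WAT log2 change −1.26, SE 0.27, adjusted p = 0.00351; BAT log2 change −1.10, SE 0.27, adjusted p = 0.018). The BAT call was lost without triple mutant BAT array 2 or 3 or ob/ob BAT array 2 (log2 change −1.09 to −0.85, with adjusted p from 0.00804 to 0.0609 over all alternatives). Adamts15 had 5.98, 5.95 and 5.96 in triple mutant WAT, against 7.07, 6.58 and 6.93 in ob/ob WAT, and 5.62, 5.40 and 5.75 in triple mutant BAT, against 5.93, 6.02 and 6.07 in ob/ob BAT, also lower and without overlap (WAT log2 change −0.90, SE 0.12, adjusted p = 0.000171; BAT log2 change −0.42, SE 0.12, adjusted p = 0.0392). Its BAT call was lost without triple mutant BAT array 1 or 2, ob/ob BAT array 1, 2 or 3 or triple mutant WAT array 1 or 2 (log2 change −0.46 to −0.32, with adjusted p from 0.0188 to 0.139 over all alternatives). Adamts1, an inflammation-induced enzyme, had 7.39, 7.83 and 7.83 in triple mutant WAT, against 8.17, 7.998 and 8.39 in ob/ob WAT, lower in triple mutants by a narrow gap (log2 change −0.51, SE 0.17, adjusted p = 0.0345). The call was lost without triple mutant WAT array 1 or ob/ob WAT array 1 or 3 (log2 change −0.51 to −0.36, with adjusted p from 0.0075 to 0.139 over all alternatives); in BAT it was not called (7.32, 7.71 and 7.86 in triple mutant BAT, against 7.79, 8.03 and 8.07 in ob/ob BAT; log2 change −0.33, SE 0.17, adjusted p = 0.198).

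Adamts9, a versicanase also tied to the growth of vessels and cilia, was the exception. It had 9.09, 8.91 and 9.57 in triple mutant WAT, against 8.25, 8.48 and 8.86 in ob/ob WAT, higher on every triple mutant array, above background in all groups and called (log2 change 0.66, SE 0.18, adjusted p = 0.0122). It was not called without ob/ob WAT array 1 (0.52, adjusted p = 0.0575, with 0.00227 to 0.0575 over all alternatives). Its probe set spans only 80 bases, and the other 5 sets of the gene gave WAT changes of 0.63 to 1.05. In BAT its values of 9.08, 8.93 and 9.19 in triple mutant BAT, against 9.18, 9.12 and 9.27 in ob/ob BAT overlapped (log2 change −0.12, SE 0.18, adjusted p = 0.684). Adamts4, Adamts8 and Adamts20 of the same kind were not called in either tissue, with WAT log2 changes from −0.16 to 0.14.

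Of the others, Adamts7, which cuts the cartilage protein Comp and thrombospondin 1, had 6.44, 6.22 and 6.23 in triple mutant BAT, against 6.98, 6.74 and 6.99 in ob/ob BAT, and 6.07, 6.45 and 6.42 in triple mutant WAT, against 6.60, 6.64 and 6.68 in ob/ob WAT. It was lower on all triple mutant BAT arrays (log2 change −0.60, SE 0.12, adjusted p = 0.00547), and lower by less in WAT (log2 change −0.33, SE 0.12, adjusted p = 0.0469). The WAT call was lost without triple mutant WAT array 1, ob/ob WAT array 1, 2 or 3, triple mutant BAT array 2 or 3 or ob/ob BAT array 1 or 3 (log2 change −0.35 to −0.21, with adjusted p from 0.0326 to 0.183 over all alternatives) and with genotype and number as a random block (adjusted p = 0.0598). Adamts12, a close relative above background in WAT, was not called in WAT (log2 change −0.21, SE 0.20, adjusted p = 0.477) or BAT (log2 change −0.42, SE 0.20, adjusted p = 0.179). Adamts6 and Adamts10, which act on fibrillin microfibrils, were not called, although Adamts6 was in WAT without triple mutant WAT array 3 (0.87, adjusted p = 0.0147, against 0.58 with all arrays). Its adjusted p in WAT ran from 0.00606 to 0.364 over all alternatives. Adamts13, which cuts von Willebrand factor, and Adamts16, Adamts17, Adamts18 and Adamts19 were not called in either tissue, with log2 changes from −0.11 to 0.15 in WAT and from −0.18 to 0.01 in BAT.

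ADAMTS-like proteins bind matrix, and Adamtsl2 and Adamtsl4 in particular bind fibrillin. Adamtsl1, punctin, had 7.11, 6.99 and 6.88 in triple mutant WAT, against 5.82, 6.36 and 5.91 in ob/ob WAT, and 5.92, 5.78 and 5.95 in triple mutant BAT, against 5.90, 6.06 and 5.92 in ob/ob BAT. Triple mutant WAT stood above all other groups by about 1 log2 unit on average, still below background (log2 change 0.96, SE 0.13, adjusted p = 0.000157; BAT log2 change −0.08, SE 0.13, adjusted p = 0.736), and a further probe set of the gene gave 0.78 in WAT. Adamtsl5 had 6.42, 6.48 and 6.40 in triple mutant WAT, against 7.77, 7.38 and 7.10 in ob/ob WAT, lower on all triple mutant arrays (log2 change −0.98, SE 0.16, adjusted p = 0.000486). Its BAT signals of 6.77, 6.61 and 6.56 in triple mutant BAT, against 6.61, 7.02 and 6.98 in ob/ob BAT overlapped (log2 change −0.22, SE 0.16, adjusted p = 0.382). Adamtsl3 fell in WAT (log2 change −0.80, SE 0.24, adjusted p = 0.0212), and this call was lost without triple mutant WAT array 3 or ob/ob WAT array 1 (log2 change −0.66 to −0.50, with adjusted p from 0.00515 to 0.0797 over all alternatives). Adamtsl4 had 6.66, 6.43 and 6.48 in triple mutant BAT, against 6.87, 7.68 and 7.29 in ob/ob BAT, all triple mutant arrays lower (log2 change −0.76, SE 0.19, adjusted p = 0.0193), and Adamtsl2 had 5.49, 5.72 and 5.78 in triple mutant BAT, against 6.15, 5.88 and 6.18 in ob/ob BAT, with the same order and a smaller gap (log2 change −0.41, SE 0.13, adjusted p = 0.0472). The Adamtsl4 call was lost without triple mutant BAT array 2 or 3 or ob/ob BAT array 2 or 3 (log2 change −0.75 to −0.56, with adjusted p from 0.00604 to 0.0648 over all alternatives), and that of Adamtsl2 without triple mutant BAT array 1, 2 or 3, ob/ob BAT array 1 or 3, triple mutant WAT array 2 or ob/ob WAT array 2 (log2 change −0.46 to −0.32, with adjusted p from 0.0193 to 0.158 over all alternatives). In WAT, Adamtsl2 and Adamtsl4 changed by −0.06 and −0.24 and were not called. Scaling also mattered for these small BAT falls: those of Adamts14, Adamts15 and Adamtsl2 were not called after either quantile normalization or after median centring, and the WAT falls of Adamts1 and Adamts7, and the BAT rise of Mmp24, were not called after either quantile normalization. Median centring moved every log2 change in BAT by 0.10 and every difference between the tissue effects by −0.11.

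Whether the genotype effect itself differed between WAT and BAT was tested as an interaction (WAT effect minus BAT effect). This called 7 of the 50 genes (14%), 2 higher and 5 lower, against 13.9% of all genes, 5.47% higher and 8.41% lower, so the share was close to that over all genes. With array weights it called 15 (30%), against 25.3% of all genes. The effect was more negative in WAT for Mmp13 (log2 change −1.50, SE 0.27, adjusted p = 0.00607), Mmp3 (log2 change −1.37, SE 0.33, adjusted p = 0.0216), Mmp19 (log2 change −1.31, SE 0.27, adjusted p = 0.00983), Timp1 (log2 change −2.08, SE 0.61, adjusted p = 0.0437) and Adamtsl5 (log2 change −0.76, SE 0.22, adjusted p = 0.0433). It was more positive in WAT for Adamtsl1 (log2 change 1.04, SE 0.18, adjusted p = 0.00569) and Mmp9 (log2 change 0.73, SE 0.19, adjusted p = 0.0253). Those of Mmp13, Mmp19 and Adamtsl1 held under every alternative. After either quantile normalization those of Timp1 and Adamtsl5 were not called. That of Timp1 was lost without any 1 of 10 arrays (log2 change −2.32 to −1.85, adjusted p from 0.0133 to 0.0976 over all alternatives) and stayed without ob/ob BAT array 1 or 2. That of Adamtsl5 was lost without any 1 of 10 arrays as well (−0.82 to −0.58, adjusted p from 0.0116 to 0.0948 over all alternatives), the exceptions being ob/ob WAT array 3 and ob/ob BAT array 2. Mmp3 lost its call without ob/ob WAT array 2 (−1.30, adjusted p = 0.0543, with 0.0091 to 0.0543 over all alternatives). Mmp9 lost its call without triple mutant WAT array 1, ob/ob WAT array 1 or 2 or triple mutant BAT array 2 or 3 (log2 change 0.66 to 0.72, with adjusted p from 0.00446 to 0.0645 over all alternatives). Genes that fell in both tissues were not called for the difference, with, for example, a 95% interval −1.20 to −0.10 for Mmp14 and a 95% interval −1.01 to 0.68 for Adamts5, both unadjusted.

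Same-numbered arrays of a genotype deviated together across the tissues, so this comparison was also fitted with genotype and number as a block. As a random block it called 12 genes (24%), 5 higher and 7 lower, against 20.8% of all genes under the same block. Added were Adamts9 (adjusted p = 0.0262), Mmp15 (0.0287), Mmp23 (0.0446), Mmp14 (0.0484) and Mmp27 (0.0349). As a fixed block it called 10 (20%), against 16.8% of all genes. It added Mmp14 (0.0186), Mmp15 (0.0302), Adamts9 (0.0246) and Timp3 (0.0395), and Adamtsl5 was lost (0.0828).

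Brown and white fat also differed within a genotype. In ob/ob mice 22 of the 50 genes were called between BAT and WAT (44%), 8 higher and 14 lower in BAT, against 37.3% of all genes, 18.2% higher and 19.1% lower. In triple mutants 9 were (18%), 2 higher and 7 lower, against 14.4%, 6.44% and 7.93%. Cell type markers differed in these comparisons too. In ob/ob mice all 9 skeletal muscle and 7 of 8 brown adipocyte markers were called higher in BAT. Called lower were 14 of 15 macrophage, 6 of 7 mast cell and 7 of 12 fibroblast markers, with 1 fibroblast marker higher. In triple mutants 3 of 9 muscle markers were higher and 4 of 15 macrophage markers lower. Their part in the differences below was not tested. Among the 50 genes, the largest differences in ob/ob mice were falls in BAT. Mmp19 had 8.21, 7.57 and 7.98 in ob/ob BAT, against 10.17, 9.65 and 9.49 in ob/ob WAT (log2 change −1.85, SE 0.19, adjusted p = 3.91e-05), and Timp2 had 9.06, 9.53 and 9.22 in ob/ob BAT, against 11.11, 11.03 and 10.85 in ob/ob WAT (log2 change −1.72, SE 0.16, adjusted p = 2.4e-05). Timp1 (7.79, 5.82 and 7.52 in ob/ob BAT, against 8.63, 8.42 and 9.13 in ob/ob WAT) was lower on all BAT arrays by very different margins (log2 change −1.68, SE 0.43, adjusted p = 0.01). Its change was −1.07 without ob/ob BAT array 2, and WAT was at least 1.64-fold brighter. Mmp13 (log2 change −1.51, SE 0.19, adjusted p = 0.000141) and Adamts5 (log2 change −1.42, SE 0.27, adjusted p = 0.00192) followed, with the array values given above and no overlap. Further falls in BAT of ob/ob mice were called for Mmp14 (−1.21), Adamts2 (−0.87), Adamts15 (−0.85), Adamts12 (−0.79), Mmp2 (−0.76), Mmp11 (−0.67), Adamtsl5 (−0.55), Mmp27 (−0.48) and Adamts14 (−0.45), all log2 changes.

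Higher in BAT than in WAT of ob/ob mice were Timp4 (log2 change 1.05, SE 0.38, adjusted p = 0.0497), Mmp15 (log2 change 1.01, SE 0.12, adjusted p = 0.000119), Timp3 (log2 change 0.88, SE 0.30, adjusted p = 0.0406), Adamts9 (0.66), Adamtsl4 (0.65), Mmp21 (0.51), Mmp9 (0.42) and Adamts8 (0.40). All 4 TIMP genes were thus called, Timp1 and Timp2 lower and Timp3 and Timp4 higher in BAT. The BAT and WAT arrays overlapped for Timp3, Adamtsl4 and Mmp9. The Timp4 call was lost without any 1 of 10 arrays (0.48 to 1.20, the lowest without ob/ob WAT array 1, adjusted p from 0.0109 to 0.132 over all alternatives) and stayed without ob/ob WAT array 2 or 3. That of Timp3 was lost without triple mutant WAT array 1, ob/ob WAT array 1 or 2, triple mutant BAT array 3 or ob/ob BAT array 2 or 3 (log2 change 0.46 to 0.99, with adjusted p from 0.00442 to 0.141 over all alternatives). After median centring neither was called. Leaving out 1 array also ended the calls of Adamts8 (ob/ob BAT array 3 or ob/ob WAT array 2, 0.34 to 0.36), Adamts9 (ob/ob WAT array 1, 0.52), Adamtsl4 (ob/ob BAT array 2 or 3 or ob/ob WAT array 1 or 2, 0.45 to 0.64), Adamtsl5 (array 1 of either tissue, −0.42 to −0.37) and Mmp9 (ob/ob BAT array 1 or 3 or ob/ob WAT array 1 or 2, 0.27 to 0.42). The Adamts8 probe set, of 513 bases, lies on the strand opposite to the gene's long set, which gave −0.0145. With the block of genotype and number, random or fixed, Mmp3 was also called lower (adjusted p = 0.0337 or 0.0395), and Adamts17 (0.0277 or 0.0389) and Adamts20 (0.0269 or 0.0326) higher. The random block alone added Adamts18 (0.0394), Mmp16 (0.0435) and Mmp28 (0.04).

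In triple mutants the largest tissue difference was that of Mmp7, with 4.59, 4.92 and 4.56 in triple mutant BAT, against 8.90, 8.86 and 5.59 in triple mutant WAT (log2 change −3.09, SE 0.76, adjusted p = 0.0185). It rested on WAT arrays 1 and 2, and the call was lost without triple mutant WAT array 1 or 2 or triple mutant BAT array 1 or 3 (log2 change −3.04 to −2.54, with adjusted p from 0.000171 to 0.0829 over all alternatives). Timp2 (8.54, 8.62 and 8.37 in triple mutant BAT, against 9.95, 9.98 and 9.41 in triple mutant WAT; log2 change −1.27, SE 0.16, adjusted p = 0.000502), Adamts5 (8.07, 7.93 and 7.84 in triple mutant BAT, against 9.61, 9.36 and 8.64 in triple mutant WAT; log2 change −1.26, SE 0.27, adjusted p = 0.0102) and Adamts2 (7.58, 7.59 and 7.19 in triple mutant BAT, against 8.96, 8.91 and 8.16 in triple mutant WAT; log2 change −1.22, SE 0.20, adjusted p = 0.00207) were lower on every BAT array, as they were in ob/ob mice. For Adamts2 the WAT signal was at least 1.62-fold brighter. Adamtsl1 (5.92, 5.78 and 5.95 in triple mutant BAT, against 7.11, 6.99 and 6.88 in triple mutant WAT; log2 change −1.11, SE 0.13, adjusted p = 0.000311) was lower in BAT too, where in ob/ob mice its change was −0.07 and not called. Adamts12 (−1.003) and Mmp23 (−0.99) were lower, and Mmp15 (0.47) and Mmp24 (0.42) higher in BAT. Mmp24 was again read on the strand opposite to the gene. The Mmp15 call was lost without triple mutant WAT array 2 or 3 or triple mutant BAT array 1 or 2 (log2 change 0.38 to 0.49, with adjusted p from 0.00699 to 0.101 over all alternatives), and that of Mmp24 without triple mutant WAT array 1, 2 or 3 or triple mutant BAT array 2 or 3 (log2 change 0.35 to 0.46, with adjusted p from 0.00648 to 0.869 over all alternatives), the gene's long probe set giving −0.0315. With the block of genotype and number, random or fixed, Mmp14 (0.0219 or 0.00837) and Mmp19 (0.0415 or 0.0387) were called lower and Mmp3 (0.0284 or 0.0401) higher in BAT. The random block added Adamts15 (0.041), and the fixed block Mmp9 (0.0358), both lower. Timp1 had 6.16, 5.62 and 5.32 in triple mutant BAT, against 5.66, 5.25 and 4.99 in triple mutant WAT, with overlap and no call (log2 change 0.40, SE 0.43, adjusted p = 0.624, 95% interval −0.55 to 1.35).

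Genes that act on these proteases or are cut by them were described from lists of their pathway. Over all genes, 17.6% were called higher and 16.7% lower in triple mutant WAT, and 10.4% higher and 6.98% lower in triple mutant BAT. Of 32 matrix substrates and partners, 19 were called lower and 2 higher in triple mutant WAT, and 19 lower and 1 higher in triple mutant BAT. Those with the smallest p in WAT were periostin, Postn (−2.31), and the collagen genes Col3a1 (−1.58) and Col6a3 (−1.64). In BAT they were Pcolce, which speeds the trimming of procollagen at its carboxyl end (−1.56), Col3a1 (−1.08) and Col6a3 (−1.26). The list's median log2 change was −0.69 in WAT and −0.77 in BAT, beside 0.04 and −0.03 over all genes. It shares Col1a1, Col3a1, Dcn and Lum with the fibroblast list and Vwf with the endothelial list, so these are not separate observations. The ADAM proteases, membrane-bound shedding enzymes, had 6 of 10 called lower and 1 higher in WAT, led by Adam19 (−1.32), Adam8, an enzyme of myeloid cells (−4.81), and Adam17, the shedding enzyme of tumour necrosis factor (−1.08). In BAT 3 were lower and 1 higher, led by Adam15 (−0.75), Adam8 (−2.23) and Adam19 (−0.51).

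Activators and inhibitors outside the families (22 of 23 listed genes measured) were mixed in WAT, with 3 called higher and 4 lower, where 34.3% of all genes were called. Lrp1, the receptor that clears MMPs and ADAMTS from the matrix (−1.38), and Plaur, the urokinase receptor (−1.97), were lower, and Pcsk6, a proprotein convertase, was higher (1.20). In BAT 4 were lower and 0 higher, where 17.4% of all genes were called. The smallest p there were those of Tll1 (−0.77), Lrp1 (−0.62) and Bmp1 (−0.63), of which Tll1 and Bmp1 trim procollagen at its carboxyl end. Of the ADAMTS-like relatives, Papln was called higher in WAT (0.58) and Thsd4 lower in BAT (−0.30), each alone.

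The authors' deposited tables of changed probe sets hold 14 of the 50 genes for WAT by the probe set used here, 3 higher and 11 lower, and 1 for BAT. In the authors' deposited table for WAT, Timp1 stands at a log2 change of −2.90 (7.47-fold), Mmp13 at −1.30, Mmp14 at −1.20, Mmp3 at −1.11, Mmp2 and Timp2 at −1.02 each, Mmp28 at 1.08 and Adamtsl1 at 0.84. All 8 have the sign found here and a smaller size. By that probe set the authors' deposited table for BAT holds Adamts2, at −1.02 (2.03-fold). Other probe sets add Adamts3 to the authors' deposited table for BAT, at 0.71 and 0.51, both higher in triple mutants. The filter behind these tables was unstated.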

How the data were processed

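RNA of 12 samples in 4 groups of 3 was measured on Affymetrix arrays. The values used are deposited log2 signals per probe set; RMA and limma appear, unversioned, in the submitters' processing notes. The authors' tables of changed genes hold log2 changes and absolute fold changes as a ratio, per the file headers. The authors' RMA table also has array columns whose names match no label, and these 12 were not used. Of 28350 main probe sets, 25004 named 1 gene, 2 several and 3344 none. Symbols were updated through RefSeq (18663 matched directly, 2243 as older symbols, 745 unmatched). The probe set with the highest mean stood for a gene (77 sets for the 50 genes).

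One model of 4 group means covered all 12 arrays (limma 3.58.1, R 4.3.3, lmFit and eBayes, 8 residual and 3.47 prior degrees of freedom). The fit was tested on simulated data. Alternatives covered normalization, filters, probe sets, variance model, samples, blocks, array weights and each array left out. Array values are given for all TIMP genes, Mmp2, Mmp9 and Mmp14, for genotype or interaction calls with a higher group mean of at least 6, and for the 5 largest called differences of each tissue comparison; from pathway lists, the 3 smallest p per tissue. Mmp12 was outside the rule. Members and lists were chosen with earlier results of these data known. The titles number the arrays 1 to 3. Same-numbered arrays of a genotype correlated across tissues (deviations from group means over genes, triple mutants r = 0.151, 0.212 and 0.186, ob/ob mice r = 0.217, 0.221 and 0.156). Differently numbered ones had r from −0.241 to 0.071. Arrays of different genotypes reached higher values, such as 0.324 for triple mutant BAT array 1 with ob/ob BAT array 2. Such correlations therefore cannot establish that arrays are paired, and the titles do not say so. The values reported come from the fit without a block, and blocked fits are alternatives. Python 3.11.15 and matplotlib 3.10.9 drew the figures.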

Additional observations from a re-analysis of the deposited data

Results flagged for a closer look

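By the interaction test of the limma fit, the genotype effect was called different between WAT and BAT for 7 of the 50 genes (14%), against 13.9% of all genes. The WAT effect minus the BAT effect was a log2 difference of −2.08 for Timp1, −1.50 for Mmp13, −1.37 for Mmp3, −1.31 for Mmp19 and −0.76 for Adamtsl5. It was 1.04 for Adamtsl1 and 0.73 for Mmp9. The calls of Timp1 and Adamtsl5 were each lost without any 1 of 10 arrays, and 3 of the 7 calls held under every alternative. For Mmp19, Adamtsl1 and Mmp9 the estimated effects had opposite signs in the 2 tissues, with the BAT effect not called in any of them (adjusted p = 0.284, 0.736 and 0.137). No rule for single outlying arrays was applied to these groups of 3 arrays, but each array was left out in turn.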

How the results depend on the processing

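Of the calls reported, 16 of 23 held under every alternative in WAT, 5 of 13 in BAT, 3 of 7 for the difference between tissues, 15 of 22 between tissues in ob/ob mice and 6 of 9 in triple mutants. With each array left out in turn the number of genes called ran from 18 to 24 in WAT, 6 to 14 in BAT, 4 to 11 for the difference, 18 to 23 between tissues in ob/ob mice and 6 to 10 in triple mutants. The shares of all genes called in these fits were not counted, so the ranges show nothing particular to these genes. Testing only genes with a group above the highest control left 15 of the 50 genes and called 10 in WAT, 7 in BAT, 3 for the difference, 13 in ob/ob and 5 in triple mutants. Over all 7037 such genes the shares called were 64.3%, 39%, 33.6%, 63.8% and 25.5%. Array weights called 15 for the difference (9 higher, 6 lower; 25.3% of all genes) and 14 between tissues in triple mutants (25.5% of all genes). A replicate block of genotype and number as a random block (consensus correlation 0.2049) called 12 for the difference (20.8% of all genes). The other blocked counts, with the number alone or with the fixed block, stayed within 1.5 times the reported ones; blocked single calls that changed in the tissue comparisons are given with the results, and the block of genotype and number changed no other. Across genotypes within a tissue the numbers did not pair the arrays. Called directions that reversed did so with the widest probe set of a gene, an alternative chosen after seeing the data: Mmp24 gave −0.0496 in BAT and −0.0315 between tissues in triple mutants, and Adamts8 −0.0145 between tissues in ob/ob mice. Why these values moved, beyond fewer genes or arrays entering a fit, was not examined: the cause was not tested. Among values not called, leaving out 1 array turned the sign of 9 of 27 genes in WAT, 9 of 37 in BAT, 9 of 43 for the difference, 8 of 28 between tissues in ob/ob mice and 16 of 41 in triple mutants, and of 0 called ones. Signals under the highest control limit what can be said of 35 of the 50 genes.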
